A study of Arabidopsis thaliana with 9 samples.

Results

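The chloroplast genome of Arabidopsis thaliana was followed through the 133 genes whose identifier starts with ATCG, out of 33602 genes in each library. Every such gene was taken, whatever its level. The RNA came from whole 9-day-old seedlings on 1/2 MS medium with 2% sucrose, in 3 groups of 3 libraries. The mutant tt19-8 lacks a working TT19, a glutathione S-transferase needed for anthocyanin to accumulate, and is the background of the other two groups. OE1 and OE2 are lines that overexpress CsGSTF1, a glutathione S-transferase from tea, in that mutant, so that all 9 libraries carry the tt19-8 allele. The promoter that drives CsGSTF1, the light regime, and whether the libraries were poly-A selected or depleted of ribosomal RNA are not given in the sources used here. The labels do not say whether the libraries of a group came from separate cultures, so p-values measure only the spread between these samples. TT19 itself ranged from 0 to 0.113 FPKM in tt19-8, from 0 to 0.0769 in OE1 and from 0.674 to 0.876 in OE2.

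Chloroplasts keep a small circular genome that encodes part of the photosystems, the cytochrome b6f complex, the ATP synthase and the NDH complex, the large subunit of Rubisco, and much of the organelle's own machinery for transcription and translation. It is transcribed by a bacterial-type polymerase, whose core comes from the plastid rpo genes and which is guided by nuclear-encoded sigma factors, and by phage-type polymerases encoded in the nucleus. Plastid messages generally lack a stable poly-A tail, which marks RNA for decay in this organelle, so a library made by poly-A selection holds few of them.

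The authors deposited FPKM, which scales fragments by gene length and by library size. They carry identifiers only, and the RefSeq annotation of TAIR10.1 at hand does not tie the ATCG identifiers to its 129 plastid genes. In OE1 and tt19-8 the FPKM values lie on steps of whole fragments, which gave a length for each of 122 chloroplast genes and a number of fragments. Names were then assigned where that length, compared with the last exon of each plastid gene, fitted a single gene. This held for 78 genes, 11 of them by elimination. Another 26 genes fitted several plastid genes, 16 of them within 1 functional class, and keep their identifier here. Of the remaining 29 genes, 16 were above 0 in fewer than 3 of the 6 libraries, 11 were at 0 where lengths can be read, and 2 had a length that no plastid gene has. For those 16 the shortest length that fits was taken, so their length and fragments are not settled, though they count in the fragment totals. The names used here are thus inferred from length. The genes psbA and psbD share a length of 1062 bases, so psbA, which encodes the D1 reaction centre protein, could not be told from psbD, and matK was not singled out. The 16 matched genes with introns could be matched only through their last exon, so their agreement with it is no check of the names. Read the same way, 525 of 1500 nuclear genes with introns (35%) had the length of their last exon. The FPKM of the matched genes with introns is taken as relative to that exon. Counts by level, the set of highest genes and class sums include such genes, so levels are not strictly comparable there.

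The sequences below are those of the genes on which the test results turn, from the RefSeq TAIR10.1 plastid genome of 154478 bases, called Pltd. The gene ATCG00620, the only chloroplast gene past the threshold in OE1, has a length of 74 bases, and 6 plastid tRNA genes have that length. They are trnD at Pltd:29801-29874, minus strand, trnI at Pltd:86312-86385, minus strand, trnP at Pltd:66490-66563, minus strand, trnR at Pltd:108302-108375, plus strand, trnW at Pltd:66229-66302, minus strand, and trnfM at Pltd:36704-36777, minus strand. Both trnI and trnR lie in 2 copies, of which 1 is given. Capitals mark the 3′-most match to GTTCNA on the sense strand, the letters usual in the T loop of a tRNA, found in 27 of the 29 tRNA genes without introns (93.1%).
trnD: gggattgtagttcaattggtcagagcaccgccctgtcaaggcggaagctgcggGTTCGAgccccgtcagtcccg
trnI: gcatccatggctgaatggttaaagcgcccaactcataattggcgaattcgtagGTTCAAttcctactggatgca
trnP: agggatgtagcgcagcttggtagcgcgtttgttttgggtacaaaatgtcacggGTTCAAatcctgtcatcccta
trnR: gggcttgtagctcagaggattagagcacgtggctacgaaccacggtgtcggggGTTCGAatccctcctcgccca
trnW: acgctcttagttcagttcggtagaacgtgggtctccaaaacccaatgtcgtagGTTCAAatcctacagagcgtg
trnfM: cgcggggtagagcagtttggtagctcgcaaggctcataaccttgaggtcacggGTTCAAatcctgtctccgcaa

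The match began at base 54 in all 6 sequences. The longest run of bases shared by a pair was 21, between trnP and trnfM, and was 12 or shorter in the other pairs. Which of the 6 tRNA genes ATCG00620 is cannot be told from its length.

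The gene rpl32, ATCG01020, encodes a protein of the large ribosomal subunit and was past the threshold in OE2. It lies at Pltd:113449-113607, plus strand, has no intron, and is shown with its start and stop codons in capitals.
rpl32: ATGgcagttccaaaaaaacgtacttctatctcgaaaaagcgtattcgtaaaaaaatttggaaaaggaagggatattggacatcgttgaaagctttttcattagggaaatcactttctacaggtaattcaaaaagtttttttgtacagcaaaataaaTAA

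Another pair of genes past the threshold in OE2, ATCG00065 and ATCG00760, have a length of 114 bases. That length fits petG at Pltd:65998-66111, plus strand, psaI at Pltd:59247-59360, plus strand, rpl36 at Pltd:79489-79602, minus strand, and the 5′ exon of rps12 at Pltd:69611-69724, minus strand. These encode a cytochrome b6f subunit, a photosystem I subunit and ribosomal proteins of the large and the small subunit. Start codons are in capitals, and stop codons too except in the rps12 exon, which is joined to the rest of its message by trans-splicing.
petG: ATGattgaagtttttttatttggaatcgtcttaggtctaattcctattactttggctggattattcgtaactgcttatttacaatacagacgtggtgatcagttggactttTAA
psaI: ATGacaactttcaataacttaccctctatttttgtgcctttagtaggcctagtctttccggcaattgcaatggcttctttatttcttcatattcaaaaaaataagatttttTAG
rpl36: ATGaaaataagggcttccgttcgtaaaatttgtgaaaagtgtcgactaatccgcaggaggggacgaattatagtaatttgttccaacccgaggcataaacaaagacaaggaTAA
rps12 5′ exon: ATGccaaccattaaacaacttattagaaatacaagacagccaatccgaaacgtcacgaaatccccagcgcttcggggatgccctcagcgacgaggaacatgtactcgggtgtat

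No pair of these 4 sequences shared a run longer than 8 bases.

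Chloroplast RNA made up a small share of every library. The chloroplast genes took 0.0311%, 0.0593% and 0.0430% of summed FPKM in OE1 replicates 1, 2 and 3, and 0.0328%, 0.0590% and 0.0437% in OE2. In tt19-8 the shares were 0.0511%, 0.0420% and 0.0319%. The groups overlapped throughout, and the replicates of each group were spread over a wider range than the distance between group means.

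**Figure D1:**
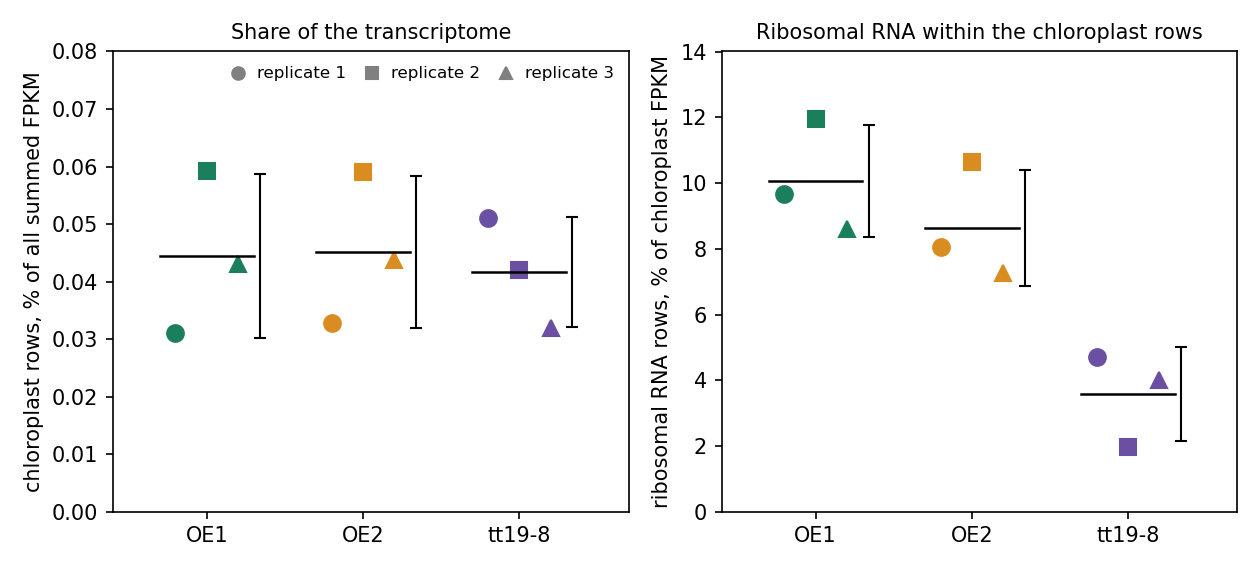
Left, summed FPKM of the 133 chloroplast genes as a percentage of the summed FPKM of the library. Right, the 6 ribosomal RNA genes as a percentage of the chloroplast FPKM. Each point is 1 library, its shape gives the replicate, the horizontal line is the group mean and the vertical bar 1 SD to each side (n = 3). On the left the groups overlap; on the right the 3 tt19-8 libraries lie below the 6 libraries of OE1 and OE2.

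The mean share was 0.0445% ± 0.0142 (SD, n = 3) in OE1, 0.0452% ± 0.0132 in OE2 and 0.0417% ± 0.00962 in tt19-8. Two-sided exact permutation tests gave p = 0.8 for OE1 against tt19-8, p = 0.7 for OE2 against tt19-8 and p = 0.8 for OE2 against OE1. Each was 0.8 after Benjamini-Hochberg adjustment over the 3 comparisons, and 3 libraries against 3 cannot give less than 0.1. Counted as fragments, the chloroplast genes held 16661, 34208 and 25944 fragments in OE1, of library totals of 48568284, 50714360 and 54784420. In tt19-8 they held 31701, 23647 and 18145 of 51887564, 48846274 and 57523938. The fragment shares ran from 0.0343% (95% Wilson interval 0.0338 to 0.0348) in OE1 replicate 1 to 0.0675% (0.0667 to 0.0682) in OE1 replicate 2. Such intervals cover counting error only, and the libraries of OE1 differed by far more than they allow. OE2 values show no such steps, so the depth of OE2 is unknown. In RNA from whole seedlings, fewer green cells and less plastid RNA per cell cannot be told apart.

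The mitochondrial genes, 146 in number, took a similar share of FPKM. It was 0.0418%, 0.0684% and 0.0545% in OE1, 0.0440%, 0.0712% and 0.0567% in OE2, and 0.108%, 0.0684% and 0.0320% in tt19-8. Replicate 2 was thus the highest library of OE1 and of OE2 in both organelles, and replicate 3 the lowest of tt19-8. Markers of green tissue, 16 nuclear genes that include LHCA1 to LHCA4, RCA and GAPA, summed to 17810, 13731 and 21834 FPKM in OE1, to 15469, 12318 and 18718 FPKM in OE2, and to 17924, 21120 and 16344 FPKM in tt19-8. None of the 16 was called in any comparison. Of all genes tested, 0.0165% were called in OE1 and 19.0% in OE2 against tt19-8, and 1.43% in OE2 against OE1. The 11 root markers summed to 1217, 1675 and 1173 FPKM in OE1, 1042, 1419 and 1026 FPKM in OE2, and 991, 1074 and 1882 FPKM in tt19-8. In OE1 and OE2 the library with the most chloroplast RNA had the lowest sum of green markers and the highest sum of root markers. In tt19-8 the library with the least chloroplast RNA had the highest root sum and the lowest green sum. Green markers and chloroplast RNA were thus not ordered alike in the lines and in tt19-8. Of the 10 root markers tested 3, EXPA7, RSL4 and COBL9, were called lower in OE2 than in tt19-8, or 30%, against 14.5% of all genes. The other root markers tested were not called, with log2 changes in OE2 from -0.70 for SCR to 0.52 for LRX1. Most of the root sum is PYK10, at a mean of 848 FPKM in tt19-8 and 772 FPKM in OE2, so the sums and the calls describe different genes. The part of tissue makeup in the chloroplast values was not tested.

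Most chloroplast genes were low in FPKM, and the number of fragments behind a low value depends on gene length. A mean of 10 FPKM or more over the 9 libraries was reached by 8 genes and a mean of 5 FPKM or more by 23, while 81 had a mean below 1 FPKM. All 9 libraries were above 0 for 74 genes, and 10 genes were listed at 0 in every library. In a gene of 1 kb, 3 fragments correspond to 0.0522 to 0.0618 FPKM in OE1 and tt19-8, and 1 fragment of a 74-base gene to 0.235 to 0.278 FPKM. The 5 highest genes together held 42.5% to 48.8% of the chloroplast FPKM of a library. They include clpP, whose level is relative to its last exon.

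**Figure D2:**
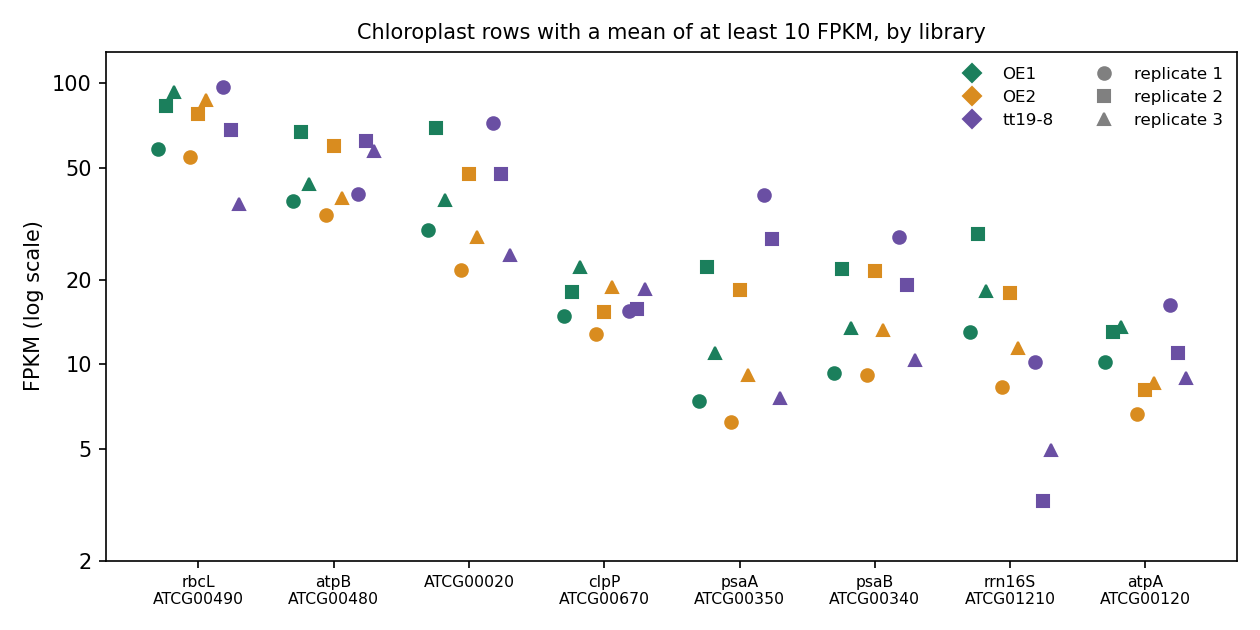
FPKM on a log scale of the 8 chloroplast genes with a mean of at least 10 FPKM, 1 point per library, coloured by group and shaped by replicate. The level of clpP is relative to its last exon. The libraries of a group are spread as widely as the groups are apart for rbcL, atpB and the photosystem genes, while for rrn16S the tt19-8 libraries reach down to 3.27 FPKM.

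The highest gene was rbcL, ATCG00490, at Pltd:54958-56397 on the plus strand, which encodes the large, catalytic subunit of Rubisco. It stood at 58.6, 83.4 and 93.4 FPKM in OE1, at 54.7, 77.7 and 87.1 FPKM in OE2, and at 97.2, 68.0 and 37.2 FPKM in tt19-8. The highest and the lowest of these values were both tt19-8 libraries, and the groups overlapped. By limma its log2 change of FPKM + 1 was 0.29 in OE1 (SE 0.324, adjusted p = 0.633) and 0.19 in OE2 (SE 0.324, adjusted p = 0.705). It took 11.04% to 21.8% of the chloroplast FPKM. Its partner, the small subunit, is encoded by 4 nuclear genes that summed to 27227, 21665 and 32540 FPKM in OE1, 21210, 17082 and 25208 FPKM in OE2, and 23395, 27738 and 24797 FPKM in tt19-8. None of the 4 genes was called in any comparison, against the shares of all genes given above.

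Next in level came atpB, ATCG00480, at Pltd:52660-54156 on the minus strand, which encodes the β subunit of the ATP synthase. It stood at 38.2, 67.3 and 43.9 FPKM in OE1, 34.1, 60.0 and 39.1 FPKM in OE2 and 40.3, 62.3 and 57.3 FPKM in tt19-8. All 3 groups covered the same range, and atpB varied less in tt19-8 than rbcL did. The genes atpB and rbcL lie next to each other and are read from opposite strands. The ratio of atpB to rbcL was 0.65, 0.81 and 0.47 in OE1 and 0.41, 0.92 and 1.54 in tt19-8, so that atpB stood above rbcL only in tt19-8 replicate 3 of these libraries and in no OE2 library.

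The α subunit gene atpA, ATCG00120, stood at 10.2, 13.0 and 13.6 FPKM in OE1, 6.65, 8.13 and 8.61 FPKM in OE2 and 16.2, 10.96 and 8.92 FPKM in tt19-8. All OE2 libraries lay below all others as deposited, but not after median-ratio scaling, when OE2 replicate 2 stood at 9.26 FPKM and tt19-8 replicate 3 at 8.66 FPKM. Its log2 change was 0.06 in OE1 (SE 0.214, limma adjusted p = 0.902) and -0.54 in OE2 (SE 0.214, limma adjusted p = 0.102). The ATP synthase gene with an intron, atpF, stood at 4.07, 6.69 and 3.56 FPKM in OE1, against 4.51, 4.19 and 3.35 FPKM in tt19-8, relative to its last exon. None of the 4 ATP synthase genes was called in any comparison, against the shares of all genes given above.

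Of the photosystem II genes, ATCG00020, which is psbA or psbD by length, was the highest. It stood at 30.1, 69.2 and 38.4 FPKM in OE1, 21.7, 47.6 and 28.4 FPKM in OE2 and 72.2, 47.5 and 24.5 FPKM in tt19-8. The other gene of that length, ATCG00270, ranged from 2.79 to 8.13 FPKM, so that the pair of reaction centre genes stood well apart in every library. The gene psbC, which encodes the core antenna protein CP43, stood at 6.47, 15.0 and 10.6 FPKM in OE1, 4.37, 9.54 and 7.06 FPKM in OE2 and 15.6, 14.2 and 6.27 FPKM in tt19-8. The photosystem II assembly gene psbN stood at 5.93, 12.7 and 13.3 FPKM in OE1, against 8.47, 5.74 and 4.48 FPKM in tt19-8. Its log2 change of 0.65 in OE1 was the largest of the class, with overlapping groups (SE 0.345, limma adjusted p = 0.318). Whether the libraries kept the strand is not given, and psbN is read from the strand opposite to its neighbours, so reads of the pair cannot be told apart.

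The photosystem I core genes psaA and psaB are adjacent on the minus strand and are known to share a transcript. The first, psaA, stood at 7.38, 22.2 and 10.99 FPKM in OE1, 6.25, 18.4 and 9.16 FPKM in OE2 and 40.2, 27.9 and 7.61 FPKM in tt19-8. The second, psaB, stood at 9.29, 21.9 and 13.5 FPKM in OE1, 9.13, 21.5 and 13.2 FPKM in OE2 and 28.4, 19.2 and 10.4 FPKM in tt19-8. In both genes tt19-8 replicate 1 was the highest library, and tt19-8 replicate 3 fell within the range of the overexpressing lines. The ratio of psaA to psaB was 0.79, 1.01 and 0.82 in OE1 and 1.41, 1.45 and 0.73 in tt19-8. With log2 changes of -0.71 in OE1 (SE 0.578, limma adjusted p = 0.502) and -0.95 in OE2 (SE 0.578, limma adjusted p = 0.264), psaA did not pass the threshold. The photosystem I class holds 5 genes here: psaA, psaB, psaJ, ycf3, relative to its last exon, and ycf4. The genes psaC and psaI were not singled out by length and are not in it. As a share of chloroplast FPKM, this class took 8.68%, 10.1% and 9.11% in OE1, 8.75%, 10.8% and 9.44% in OE2 and 15.4%, 13.4% and 12.2% in tt19-8. Every tt19-8 library stood above every other, but for replicate 3 this rests on psaJ. That gene took 4.70% of chloroplast FPKM there, against 0.656% and 1.18% in tt19-8 replicates 1 and 2. It took 1.60% to 2.27% in OE1 and 1.58% to 2.12% in OE2. The class share was looked at after the values were seen.

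The cytochrome b6f gene petN, which encodes a very small subunit, had the largest change of its class in OE1. It stood at 0, 1.97 and 0.811 FPKM in OE1, 0.541, 1.65 and 1.13 FPKM in OE2 and 1.93, 7.96 and 0.773 FPKM in tt19-8. The groups overlapped, and the tt19-8 mean rests on replicate 2. The log2 change was -1.04 in OE1 (SE 0.550, limma adjusted p = 0.319). The subunit IV gene petD stood at 1.91, 3.15 and 3.997 FPKM in OE1, against 5.32, 5.86 and 1.35 FPKM in tt19-8, relative to its last exon.

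Genes of the NDH complex, which carries out cyclic electron flow around photosystem I, were lower. Of 10 such genes 3 passed the filter on low values. Of these ndhA stood at 6.25, 10.9 and 6.99 FPKM in OE1, 5.05, 8.80 and 5.63 FPKM in OE2 and 13.2, 7.80 and 5.02 FPKM in tt19-8, relative to its last exon. The genes ndhK and ndhJ had log2 changes of -0.01 and -0.05 in OE1 and of -0.15 and -0.33 in OE2. None of the 3 was called, against the shares of all genes given above.

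Among the other proteins, clpP, which encodes a subunit of the Clp protease, was the most even of the 8 high genes, at 14.8, 18.1 and 22.2 FPKM in OE1, 12.8, 15.3 and 18.9 FPKM in OE2 and 15.5, 15.7 and 18.5 FPKM in tt19-8. The envelope protein gene cemA stood at 1.01, 3.06 and 2.17 FPKM in OE1, against 3.16, 3.56 and 2.65 FPKM in tt19-8. The groups overlapped in both genes. The gene accD, for a subunit of acetyl-CoA carboxylase, ranged from 0.154 to 0.524 FPKM over all libraries. The long genes ycf1 and ycf2 were close to 0, with at most 0.0916 FPKM in the larger ycf1 entry and 0.0140 FPKM in either ycf2 entry.

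In OE1 against tt19-8, 63 chloroplast genes passed the filter of at least 1 FPKM in at least 3 libraries and were tested, while 70 were not. By limma with Benjamini-Hochberg adjustment over all 18232 genes tested, 1 chloroplast gene fell and 0 rose at an adjusted p under 0.05. Of all genes tested 0.0165% were called, 0.00548% higher and 0.0110% lower. At an unadjusted p under 0.05 there were 9 of 63 chloroplast genes, or 14.3%, against 19.0% of all genes. The median log2 change was -0.04 over the chloroplast genes, of which 36 were below 0, and -0.11 over all genes.

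The gene that fell was ATCG00620, one of the 74-base tRNA genes printed above. It stood at 0, 0.266 and 0.247 FPKM in OE1, 0.184, 0.423 and 0.439 FPKM in OE2 and 2.60, 1.94 and 2.35 FPKM in tt19-8. Every tt19-8 library stood above every library of the other groups. In OE1 these values are 0, 1 and 1 fragments, and in tt19-8 10, 7 and 10 fragments. The 2 fragments against 27 give a ratio of 0.0761 (exact 95% interval 0.00877 to 0.303, counting error only). The log2 change of FPKM + 1 was -1.50 in OE1 (SE 0.175, limma adjusted p = 0.037). Leaving out any 1 library ended this call: without an OE1 or OE2 library the limma adjusted p was between 0.107 and 0.209, and without a tt19-8 library the gene no longer passed the filter. Median-ratio scaling ended it too (limma adjusted p = 0.0896). A fit of OE1 and tt19-8 only, without OE2, gave a limma adjusted p of 0.168, and of 0.0455 with a replicate block added. The gene reached 1 FPKM in tt19-8 libraries only, so it passed the filter through the group in which it is high, and its call is a description rather than support for a change.

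Groups did not overlap in 7 of 63 chloroplast genes, or 11.1%, against 17.5% of all genes tested, of which 4.14% were higher and 13.3% lower in OE1. The 5 that were higher in every OE1 library were both entries of rrn16S, both entries of rrn23S and ATCG00140, which is atpH or psaC by length. The 2 that were lower were ATCG00620 and ATCG00065.

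**Figure D3:**
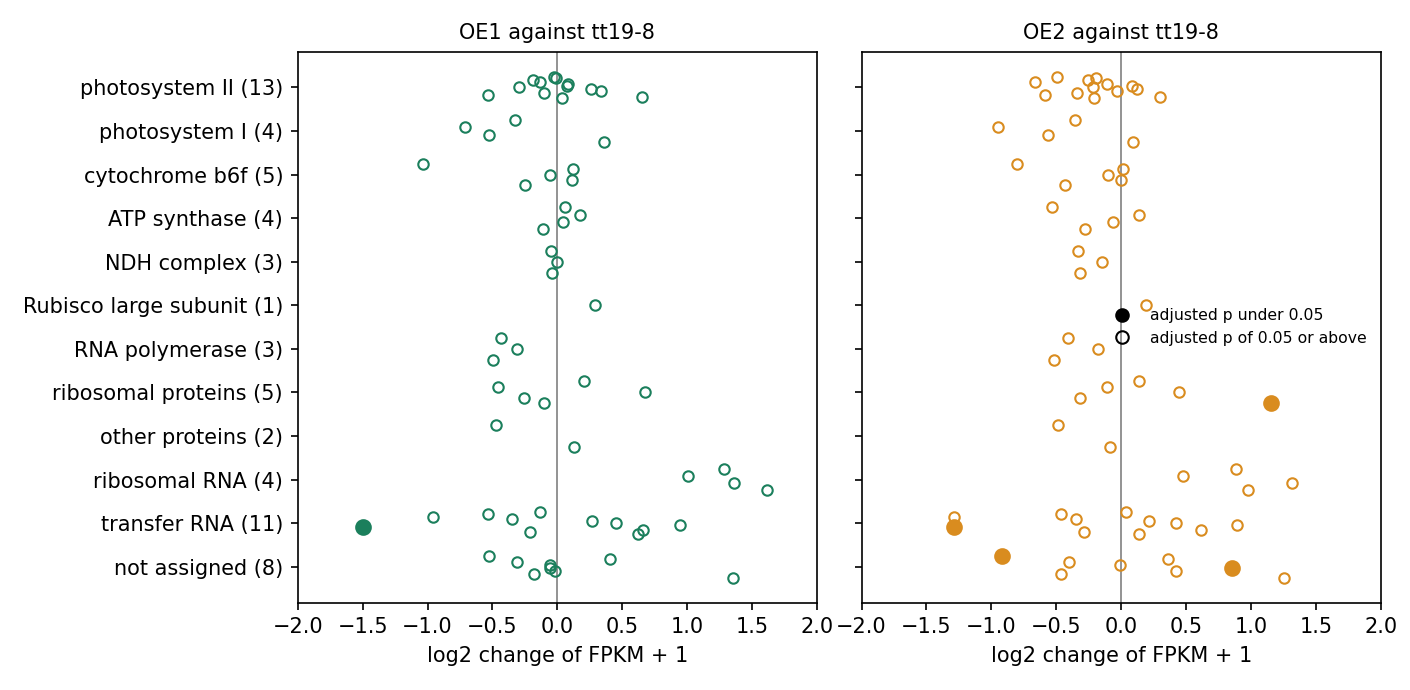
Log2 change of FPKM + 1 of the 63 tested chloroplast genes by class, in OE1 (left) and OE2 (right) against tt19-8, as deposited, 1 point per gene. The number tested stands beside each class, and filled points have a limma adjusted p under 0.05. The 4 ribosomal RNA genes lie to the right of 0 and the 3 RNA polymerase genes to the left in both plots, which share the tt19-8 libraries.

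In OE2 against tt19-8, 4 of the 63 chloroplast genes were called, 2 higher and 2 lower, or 6.35%, by limma with Benjamini-Hochberg adjustment. Over all genes tested 19.0% were called, 4.50% higher and 14.5% lower. At an unadjusted p under 0.05 the counts were 10 of 63, or 15.9%, against 35.4% of all genes. The median log2 change was -0.11 over the chloroplast genes and -0.18 over all genes. Scaling the libraries by median ratios moved the median of all genes from -0.18 to 0.03 and that of the chloroplast genes from -0.11 to 0.05, so the small negative median of the chloroplast genes depends on the scaling. It also moved the calls over all genes from 821 higher and 2646 lower to 1384 higher and 799 lower, and those of the chloroplast genes to 2 higher and 1 lower. Both comparisons use the same 3 tt19-8 libraries.

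The called genes were all low. The tRNA gene ATCG00620 fell by 1.29 on the log2 scale (SE 0.175, limma adjusted p = 0.00315), with the FPKM values given above. The 114-base gene ATCG00065 stood at 4.15, 4.15 and 2.24 FPKM in OE1, 2.73, 2.58 and 1.87 FPKM in OE2 and 4.56, 6.11 and 5.49 FPKM in tt19-8. All OE2 and OE1 libraries were below all tt19-8 libraries, and the log2 change in OE2 was -0.91 (SE 0.217, limma adjusted p = 0.0205). In OE1 it was -0.53 (SE 0.217, limma adjusted p = 0.234). The call in OE2 was lost under either scaling (limma adjusted p = 0.0649 with median ratios) and without OE2 replicate 1, OE2 replicate 3 or tt19-8 replicate 2 (0.0609 to 0.0784).

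The ribosomal protein gene rpl32 was called higher in OE2. It stood at 0.129, 0.248 and 0.689 FPKM in OE1, 2.25, 2.17 and 2.12 FPKM in OE2 and 0.242, 0.644 and 0.437 FPKM in tt19-8. The OE2 libraries stood above all others and within a narrow range of each other. In OE1 the values are 1, 2 and 6 fragments and in tt19-8 2, 5 and 4 fragments. The log2 change of FPKM + 1 was 1.15 against tt19-8 (SE 0.192, limma adjusted p = 0.00691) and 1.25 against OE1 (SE 0.192, limma adjusted p = 0.00983). The 114-base gene ATCG00760 stood at 0, 0.173 and 0.160 FPKM in OE1, 1.02, 1.18 and 1.06 FPKM in OE2 and 0, 0.539 and 0 FPKM in tt19-8. Its log2 change in OE2 was 0.85 against tt19-8 (SE 0.198, limma adjusted p = 0.0189) and 0.91 against OE1 (SE 0.198, limma adjusted p = 0.0558). Without tt19-8 replicate 1 the former was no longer called (limma adjusted p = 0.0645). Both rpl32 and ATCG00760 reached 1 FPKM in the OE2 libraries only, so without any 1 of these they were not tested, and their calls too are a description rather than support for a change. With a pseudocount of 0.1 FPKM rpl32 was no longer called against OE1 (limma adjusted p = 0.055). Of the 63 tested chloroplast genes 3 passed the filter through a single group, and they are 3 of the 4 genes called, so that the count of calls is no support for a change of chloroplast genes.

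**Figure D4:**
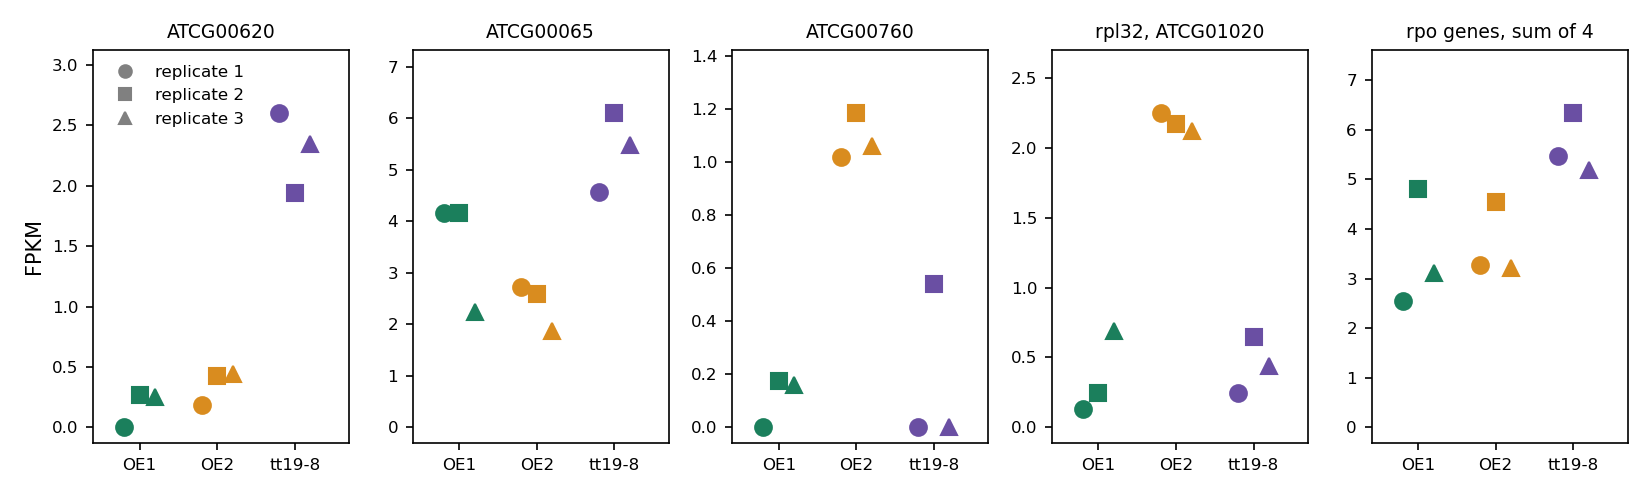
FPKM by library of the 4 chloroplast genes called in any comparison and, on the right, the sum of the 4 rpo genes, with each panel on its own linear axis. ATCG00620 and ATCG00065 are highest in tt19-8, ATCG00760 and rpl32 are highest in OE2, and the rpo sum is above 5 FPKM only in tt19-8.

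Leaving out tt19-8 replicate 3 raised the number called in OE2 to 8, or 13.1% of those tested, with 2 higher and 6 lower, and leaving out OE2 replicate 1 or 3 lowered it to 1. The calls over all genes moved likewise, from 19.0% to 32.9% without tt19-8 replicate 3, to 2.94% without OE2 replicate 1 and to 4.33% without OE2 replicate 3. Groups did not overlap in 9 of 63 chloroplast genes, or 14.3%, against 37.1% of all genes. Higher in OE2 were 4 of them, or 6.35%, against 9.35% of all genes, and lower 5, or 7.94%, against 27.7%. Of the tRNA genes, trnG, relative to its last exon, stood at 1.68, 4.83 and 5.59 FPKM in OE1, 1.43, 3.42 and 3.83 FPKM in OE2 and 13.0, 10.03 and 3.90 FPKM in tt19-8. Every OE2 library was below every tt19-8 library, though the lowest tt19-8 library stood only just above the highest of OE2. Its log2 change in OE2 was -1.29 (SE 0.447, limma adjusted p = 0.0674). The tRNA gene ATCG00450, matched through a last exon of 35 bases, had log2 changes of 0.95 in OE1 and 0.89 in OE2, with overlapping groups.

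In OE2 against OE1, 1 of the 63 chloroplast genes was called, which was rpl32, or 1.59%, against 1.43% of all genes. Higher calls made up 1.39% and lower calls 0.0329% of all genes. At an unadjusted p under 0.05 there were 3 of 63, against 11.7% of all genes. Groups did not overlap in 3 of 63 genes, or 4.76%, against 21.8% of all genes. Of the 3, 2 were higher in OE2, where 7.04% of all genes were, and 1 was lower, where 14.7% were. Same-numbered libraries of the lines moved together: the correlation of their deviations from the group means over 18232 genes was 0.953, 0.959 and 0.957 for replicates 1, 2 and 3. With replicate number as a block and only these groups in the fit, a setting added after the data were seen, limma called 36 of 52 chloroplast genes, or 69.2%, 3 higher and 33 lower. Over all genes that fit called 67.8%.

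The link between the lines showed in the ratio of OE2 to OE1 within same-numbered libraries, taken for the 42 chloroplast genes with at least 1 FPKM in every OE1 library. For rbcL the ratio was 0.933, 0.931 and 0.932 in replicates 1, 2 and 3, and for atpB 0.893, 0.891 and 0.892. For psaB it was 0.982, 0.979 and 0.980, while for rpoB it was 1.48, 1.02 and 1.06. The ratio held nearly the same value in all 3 pairs for the first 3 genes, although their FPKM differed between replicates. It was within 5% across the pairs for 25 of 42 genes, or 59.5%, and for 61.5% of the 16355 genes of the whole table that passed the same minimum. With the replicate numbers of OE2 shifted by 1, none of the 42 genes kept within 5%. The median ratio was 0.865, and 37 of 42 genes, or 88.1%, were below 1 in all 3 pairs. Over the 16355 genes of the whole table the median ratio was 0.930 and 69.7% were below 1 in all 3 pairs, and the summed FPKM averaged 892212 in OE2 and 1059201 in OE1. The values of OE2 thus follow those of OE1 library by library. The cause of this link, and whether the OE2 values were measured independently, was not tested.

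**Figure D5:**
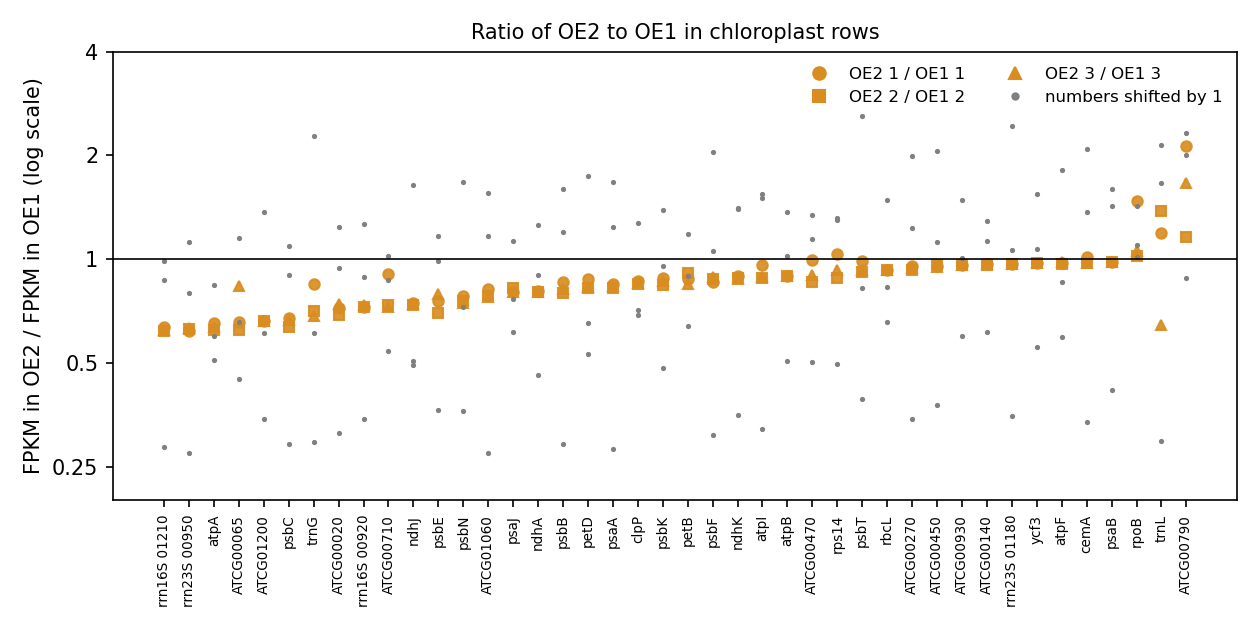
FPKM in OE2 divided by FPKM in OE1, on a log scale, for the 42 chloroplast genes with at least 1 FPKM in every OE1 library. Coloured symbols are the 3 same-numbered pairs and grey dots pair the libraries with numbers shifted by 1. The coloured symbols of most genes coincide, between 0.617 and 1 for most, and the grey dots scatter.

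The replicates of OE1 were ordered alike in most chloroplast genes. Replicate 2 was the highest OE1 library in 43 of 63 genes, or 68.3%, against 26.4% of all genes tested, and replicate 1 was the lowest in 44, or 69.8%, against 30.4%. In tt19-8, replicate 3 was the lowest in 30 of 63 genes, or 47.6%, against 47.2% of all genes.

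Ribosomal RNA genes stood out by the size of their change in OE1, without passing the test. The plastid ribosomal RNA lies in the inverted repeat, so rrn16S, rrn23S and rrn4.5S have 2 entries each with near-identical sequence, and the authors' assignment of reads between them is not stated. Summed over the 6 entries, ribosomal RNA stood at 32.0, 73.1 and 39.9 FPKM in OE1, 23.6, 54.5 and 29.0 FPKM in OE2 and 25.7, 9.09 and 13.5 FPKM in tt19-8. Every OE1 library was above every tt19-8 library, while OE2 replicate 1 fell below tt19-8 replicate 1. After median-ratio scaling OE2 replicate 1 stood at 25.4 FPKM and tt19-8 replicate 1 at 24.3 FPKM, and the groups no longer overlapped. A two-sided exact permutation test gave p = 0.1 for OE1 against tt19-8, the smallest that 3 against 3 allows and 0.3 after adjustment over the 3 comparisons, and p = 0.2 for OE2. This test was planned for the chloroplast share only. Run also on the summed protein genes, the summed tRNA genes and the mitochondrial share, it gave no p below 0.5. The adjustment does not cover those tests.

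The higher entry of rrn16S, ATCG01210, stood at 13.1, 29.1 and 18.3 FPKM in OE1, 8.31, 18.0 and 11.4 FPKM in OE2 and 10.2, 3.27 and 4.97 FPKM in tt19-8. Its log2 change was 1.61 in OE1, and those of the other 3 tested entries were 1.36, 1.29 and 1.00, with limma adjusted p from 0.175 to 0.185. The higher entry of rrn23S, ATCG01180, stood at 7.75, 21.4 and 8.52 FPKM in OE1, against 6.08, 2.35 and 3.64 FPKM in tt19-8. Relative to the chloroplast total, ribosomal RNA took 9.66%, 11.9% and 8.59% of FPKM in OE1, 8.04%, 10.6% and 7.26% in OE2 and 4.72%, 1.97% and 4.02% in tt19-8. On this scale, looked at after the values were seen, neither line overlapped tt19-8. In fragments the share was 17.5%, 21.4% and 15.7% in OE1 and 8.06%, 3.63% and 8.20% in tt19-8. The ratio of rrn23S to rrn16S was 0.57, 0.68 and 0.49 in OE1, 0.74, 0.92 and 0.64 in OE2 and 0.57, 0.76 and 0.69 in tt19-8. It was higher in OE2 than in the same-numbered OE1 library in all 3 pairs. Entries for nuclear-encoded ribosomal RNA, 4 in number, summed to 3101, 4536 and 4375 FPKM in OE1, 2711, 3921 and 3805 FPKM in OE2 and 9197, 6031 and 1926 FPKM in tt19-8. They were highest in tt19-8 replicates 1 and 2, and the part of RNA selection in either value was not tested.

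The plastid genes for ribosomal proteins were low. Of 19 such genes 5 were tested. The small subunit gene rps14 stood at 2.38, 4.95 and 3.37 FPKM in OE1, 2.46, 4.37 and 3.13 FPKM in OE2 and 3.69, 3.18 and 1.95 FPKM in tt19-8, with overlapping groups. The gene rps19 stood at 1.55, 1.34 and 0.654 FPKM in OE1, against 0.691, 0.147 and 0.249 FPKM in tt19-8, with a log2 change of 0.68 (SE 0.231, limma adjusted p = 0.190). The large subunit gene rpl14 had a log2 change of -0.46 in OE1, with overlapping groups. Over the 19 genes the sum was 10.5 ± 0.99 FPKM (SD, n = 3) in OE1, 12.9 ± 1.13 in OE2 and 10.3 ± 2.57 in tt19-8. Most of the excess of OE2 is rpl32, which passed the filter through OE2 only, so the sum does not show a rise of the class.

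The plastid RNA polymerase genes had their highest sums in tt19-8. The 4 rpo genes together stood at 2.55, 4.81 and 3.10 FPKM in OE1, 3.27, 4.54 and 3.21 FPKM in OE2 and 5.46, 6.34 and 5.18 FPKM in tt19-8. No library of either line reached the lowest tt19-8 library as deposited. After median-ratio scaling OE1 replicate 2 stood at 5.09 and OE2 replicate 2 at 5.17 FPKM, above tt19-8 replicate 3 at 5.03 FPKM, and with equal nuclear totals OE2 still overlapped tt19-8. The α subunit gene rpoA stood at 0.624, 1.41 and 0.774 FPKM in OE1, 0.691, 1.28 and 0.738 FPKM in OE2 and 2.26, 1.84 and 1.12 FPKM in tt19-8. The β subunit gene rpoB stood at 1.09, 1.58 and 1.47 FPKM in OE1, against 1.49, 2.28 and 2.11 FPKM in tt19-8. For rpoC1, which encodes the β′ subunit, the values were 0.626, 1.25 and 0.555 FPKM in OE1, against 1.22, 1.41 and 1.64 FPKM in tt19-8. Single genes overlapped between OE1 and tt19-8, with log2 changes of -0.50 for rpoA, -0.31 for rpoB and -0.44 for rpoC1, and limma adjusted p from 0.257 to 0.327. The fourth gene, rpoC2, did not pass the filter.

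Of the nuclear genes that transcribe the plastid genome, the phage-type polymerases were called lower in OE2 than in tt19-8. In that comparison 14.5% of all genes tested were called lower. RPOTp, AT2G24120, targeted to plastids, averaged 39.4 ± 11.1 FPKM in tt19-8 and 17.5 ± 1.42 FPKM in OE2 (SD, n = 3), with a log2 change of -1.09 (limma adjusted p = 0.00904). RPOTmp, AT5G15700, targeted to plastids and mitochondria, averaged 7.36 ± 1.83 and 3.90 ± 0.212 FPKM in these groups, with a log2 change of -0.75 (limma adjusted p = 0.0215). The call of RPOTmp was lost with equal nuclear totals (limma adjusted p = 0.0743) and without any 1 OE2 library or tt19-8 replicate 1 or 2 (0.0595 to 0.0833), while that of RPOTp held under both scalings. In OE1 the log2 changes were -0.62 and -0.67, neither past the threshold (limma adjusted p = 0.183 and 0.178), but without tt19-8 replicate 3 both were called (limma adjusted p = 0.0104). In that fit 17.3% of all genes were called in OE1, in place of 0.0165%. Of 6 sigma factors 0 were called in any comparison. Of all genes 0.0165% were called in OE1 and 19.0% in OE2 against tt19-8, and 1.43% in OE2 against OE1. With so few genes called in OE1, the absence of a call there says little about the sigma factors. Of the sigma factors, SIG2 averaged 58.8 ± 12.4 FPKM in tt19-8, 54.0 ± 8.85 in OE1 and 41.9 ± 4.86 in OE2. The light- and stress-responsive sigma factor SIG5 averaged 0.873 ± 0.42 FPKM in tt19-8, 1.35 ± 0.572 in OE1 and 1.94 ± 0.569 in OE2. Its log2 change in OE2 was 0.65 (SE 0.244, limma adjusted p = 0.0838). Of 13 proteins that attach to the plastid polymerase, 1 rose and 2 fell in OE2, or 23.1% against 19.0% of all genes. In OE1 0 were called, against 0.0165% of all genes. The 6 plastid entries mainly read by the phage-type polymerases are rpoB, rpoC1, rpoC2, accD and both of ycf2, and 3 of them are rpo genes, so the lists overlap. They had a summed FPKM of 2.24, 3.93 and 2.63 in OE1, 2.88, 3.78 and 2.77 in OE2 and 3.61, 4.84 and 4.22 in tt19-8, where the lowest tt19-8 library fell within the range of both lines.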

How the data were processed

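RNA-seq of 9 seedling libraries was used as deposited. The values are FPKM, per the deposited files, in 1 file per library with gene identifiers only. The submitters' processing notes list the build TAIR10 and the tools edgeR and HISAT 0.1.6 with no role; gene lengths, totals and filters are not given in the sources used here. Whole fragment totals, gene lengths and fragment counts were computed from the steps of the FPKM values in OE1 and tt19-8. Names of chloroplast genes were inferred from length against the RefSeq TAIR10.1 plastid annotation. Of 1500 nuclear genes with introns read the same way, 525 (35%) had the length of their last exon and 0 that of all exons.

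Tests used limma 3.58.1 (R 4.3.3) on log2(FPKM + 1), with all 9 libraries in 1 fit over groups, eBayes with trend and robust on, and a filter of at least 1 FPKM in at least 3 libraries. P-values were adjusted by Benjamini-Hochberg over all 18232 genes tested, with a threshold of 0.05. The fit treats all libraries as independent. Same-numbered OE1 and OE2 libraries moved together, so its SEs and p-values, in OE1 too, rest on an assumption not met here. The pseudocount understates changes of low genes. The scripts were tested on simulated data. Single values were compared by exact permutation in scipy 1.17.1, run under Python 3.11.15. The other packages were pandas 2.3.3, numpy 2.4.6 and, for drawing, matplotlib 3.10.9. Replicate numbers were checked for pairing. Same-numbered libraries of OE1 and OE2 correlated at 0.953 to 0.959 in their deviations from group means, as a finding in the data and not from the labels. For OE1 and tt19-8 the correlations of same-numbered libraries were -0.0586, 0.0425 and 0.0315. Genes were named in the text by rule: in each class the 2 highest and the one with the largest change in OE1, every gene past the threshold, and a fixed list (rbcL, accD, clpP, ycf1, ycf2, the rpo genes, ATCG00620 and a few nuclear genes). Values of other genes were added after they were seen. The chloroplast genes and all lists were chosen with earlier results of these data known. Alternatives were another pseudocount, other filters and scalings, other groups in the fit, a replicate block and each library left out. The data do not give the level of CsGSTF1, which was not analysed here.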

Additional observations from a re-analysis of the deposited data

Results flagged for a closer look

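The gene rpl32 (ATCG01020) was flagged because its log2 change against tt19-8 was 1.25 larger in OE2 than in OE1 (SE 0.192, limma adjusted p = 0.00983 for the difference). It reached 1 FPKM in the OE2 libraries only and so passed the filter through the group in which it is high, which makes the difference a description and not support for a change. With a pseudocount of 0.1 FPKM it was not called (limma adjusted p = 0.055). All 3 OE2 libraries were higher than all 3 OE1 libraries, at 2.12 to 2.25 FPKM against 0.129 to 0.689 FPKM. Within same-numbered libraries the ratio of OE2 to OE1 was 17.4, 8.75 and 3.08, over OE1 values of 1, 2 and 6 fragments.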

How the results depend on the processing

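The number of chloroplast genes called in OE1 against tt19-8 fell from 1 to 0 with a pseudocount of 0.1 FPKM, a filter of 5 FPKM, median-ratio scaling or only the groups compared, and was 0 to 1 with a library left out. The 1 was then psaJ (ATCG00630), called higher without tt19-8 replicate 3 (log2 change 0.91, limma adjusted p = 0.0298), in a fit that called 17.3% of all genes and 1.64% of the chloroplast genes. In OE2 against tt19-8 the filter of 5 FPKM gave 0 in place of 4, and leaving out a library gave 1 to 8. In OE2 against OE1 the count of 1 became 0 with the pseudocount of 0.1 or the filter of 5 FPKM, and 2 with no filter, either scaling, only the groups compared or the replicate block. It became 36 with the replicate block and only the groups compared, and was 0 to 2 with a library left out. With the replicate block and all libraries, 1 gene was called in OE1 and 6 in OE2 against tt19-8, where the libraries share only a number. The difference in chloroplast share was 0.00276 percentage points for OE1 against tt19-8, and -0.000662 over protein-coding genes. It ranged from -0.00465 to 0.00946 with a library left out. For OE2 against tt19-8 the difference was 0.00347, and with a library left out -0.00347 to 0.00968. For OE2 against OE1 it was 0.000707, without the highest gene -7.99e-05, and with a library left out -0.00623 to 0.00812. A sign-flip permutation of same-numbered differences gave p = 1, 1 and 0.5. The cause of these shifts was not tested. Of 1486 alternatives for 93 values of named genes, 1323 kept direction and side of the threshold. Of the rest, 38 passed it newly, 16 no longer passed it and 109 changed sign without being called in the main result. Most of the values were not called in the main result and so could not lose a call. Settings in which a gene failed the filter are not counted, so the tally is no measure of how firm the calls are. Most chloroplast genes had a mean below 1 FPKM, and a change in a gene of a few fragments, such as ATCG00620, rests on single fragments.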

Other observations

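The entries for the 2 copies of the plastid ribosomal RNA genes had different ratios between the lines. For rrn23S the OE2 to OE1 ratio was 0.618, 0.627 and 0.633 in ATCG00950 and 0.967, 0.967 and 0.968 in ATCG01180 for replicates 1, 2 and 3. For rrn16S it was 0.726, 0.725 and 0.735 in ATCG00920 and 0.635, 0.617 and 0.624 in ATCG01210. Copies of near-identical sequence thus differed in ratio by more than the replicates did, which was not tested further.

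The small subunit gene rps2 (ATCG00160), below the filter and seen after the fact, held 2, 7 and 2 fragments in OE1 and 34, 14 and 14 in tt19-8. The gene ATCG01190 stood at 2.35, 3.94 and 0 FPKM in OE1 and at 2.06, 3.45 and 0 FPKM in OE2, and was listed at 0 in all tt19-8 libraries. The groups overlapped at 0, and its log2 change in OE1 was 1.35 (SE 0.606, limma adjusted p = 0.262). The shortest length that fits its values is 35 bases, at which they rest on a few fragments.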
